A study of Mus musculus with 9 samples.

Results

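The solute carrier families 1, 6, 7 and 38 supply cells with amino acids and clear transmitters from the space around them. Members were all genes of the table whose symbol is Slc1a, Slc6a, Slc7a or Slc38a followed by a number and nothing more. Of 38195 symbols, 50 were of this form: 7 in family 1, 18 in family 6, 14 in family 7 and 11 in family 38. Transcripts were measured at stage E12.5 in the embryonic hypothalamus of outbred CD-1 mice, with no treatment or engineered allele in the labels. The groups were the ventricular zone (VZ), the medial mantle zone (mMZ) and the lateral mantle zone (lMZ), each microdissected from brain slices and each with 3 libraries. The study's stated purpose was to find genes specific to a region. Values are FPKM, that is, fragments per kilobase scaled to library depth, and a level per length can be compared between genes. Differences are log2 differences of FPKM + 1 between zone means, with their standard error (SE), and understate the change of low genes. Whether replicates stem from different embryos or litters is not in the labels, so p-values measure only the spread between these libraries, which may be technical. In these pieces of tissue, fewer cells of a type and less RNA per cell cannot be told apart.

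Family 1 holds the excitatory amino acid transporters, which take glutamate out of the extracellular space with the sodium gradient, and a pair of neutral amino acid exchangers. Family 6 couples uptake of GABA, glycine, taurine, creatine, proline and monoamines to sodium and chloride. Family 7 holds cationic amino acid transporters and the light chains that work in a complex with a heavy chain, and family 38 moves glutamine, alanine and related amino acids. In the developing brain, progenitor cells line the ventricle, and the mantle holds the neurons that have left it.

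The libraries were unequal in depth. The depth implied by the smallest steps of the values was 24.7-fold below the median library in ventricular replicate 3 and 11.96-fold below it in medial replicate 3, while none of the other 7 was more than 1.46-fold below it. A single fragment on a 2 kb transcript was worth 1.92 FPKM and 0.927 FPKM in these shallow libraries. Of the tested members, 10 were listed at 0 in ventricular replicate 3, 3 in medial replicate 3 and 0 in the other libraries. Among all tested genes 16.9% were at 0 in ventricular replicate 3 and 8.18% in medial replicate 3, against 0.350% to 1.39% in the others. Members with a 0 are therefore given by library and not as a mean. The zone labels were checked against marker genes. The summed level of 8 radial glia and progenitor markers was 922 to 1932 FPKM in the ventricular, 893 to 1075 in the medial and 86.0 to 121 in the lateral libraries. That of the 7 neuron markers in the table was 485 to 900, 902 to 1054 and 1146 to 1369 FPKM in the same order. The medial mantle libraries therefore held progenitor markers at levels that overlapped those of the ventricular zone.

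Promoter sequences of members whose level differed between zones are printed first. The tables of RefSeq sequences on GRCm38.p6 held a window for 35 of the 50 members. The sequences run over the 150 bases before the annotated start, with every CG pair in capitals. Slc1a3, the glutamate transporter of progenitors and astrocytes known as GLAST, lay at chr15:8710808-8710957 on the minus strand for this stretch. Slc1a1, the transporter of neurons known as EAAC1, lay at chr19:28834985-28835134 on the plus strand. Slc6a11, the GABA transporter GAT3, lay at chr6:114131091-114131240 on the plus strand. Slc6a17, a neutral amino acid transporter of synaptic vesicles, lay at chr3:107518019-107518168 on the minus strand at the 5′ end of its gene span.
Slc1a3: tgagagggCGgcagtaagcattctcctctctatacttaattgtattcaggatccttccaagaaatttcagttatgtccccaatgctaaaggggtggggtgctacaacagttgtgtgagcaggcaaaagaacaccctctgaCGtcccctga
Slc1a1: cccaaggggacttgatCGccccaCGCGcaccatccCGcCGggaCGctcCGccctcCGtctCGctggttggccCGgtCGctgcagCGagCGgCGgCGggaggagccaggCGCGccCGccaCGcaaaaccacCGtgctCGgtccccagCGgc
Slc6a11: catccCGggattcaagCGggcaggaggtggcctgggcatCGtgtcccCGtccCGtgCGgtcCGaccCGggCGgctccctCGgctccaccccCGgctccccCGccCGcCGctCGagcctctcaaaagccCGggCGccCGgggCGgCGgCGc
Slc6a17: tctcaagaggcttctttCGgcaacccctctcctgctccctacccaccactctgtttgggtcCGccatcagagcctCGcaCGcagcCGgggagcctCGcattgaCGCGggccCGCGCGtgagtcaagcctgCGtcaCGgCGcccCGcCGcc
The stretch before Slc1a3 held 2 CG pairs at 47.3% G and C. That before Slc1a1 held 22, that before Slc6a11 held 21 and that before Slc6a17 held 16. The median over 32851 windows of the table was 4, and 29.3% of windows held fewer than the Slc1a3 stretch, against 95.9%, 94.9% and 87.0% for the other three. Slc1a3 was higher in the ventricular zone than in the lateral mantle, and the other three were lower, as the values below show. A second annotated start of Slc6a17, inside the gene, had a stretch (chr3:107500741-107500890, minus strand) with 1 CG pair, and 14.3% of windows held fewer. At the printed starts the gene higher in the ventricular zone thus had the fewest CG pairs, but the second start of Slc6a17 had fewer still. So few genes, picked for their difference, cannot show whether CG pairs go with its direction, and this was not tested.

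Against the lateral mantle, the ventricular zone showed lower levels of 5 of the 8 tested members of family 6, and a different make-up of the glutamate transporters. The 5 were Slc6a11 for GABA, Slc6a6 for taurine, Slc6a7 for proline, and Slc6a15 and Slc6a17 for neutral amino acids. All of these calls but that of Slc6a7 were lost when some single library was left out. The test was limma on the 14004 genes that reached 1 FPKM in 3 or more libraries, and 30 of the 50 members were among them. Of these 30, 8 passed an adjusted p of 0.05 (26.7%), 2 higher in the ventricular zone and 6 lower. Over all genes tested, 19.6% passed, 10.7% as higher and 8.93% as lower. The median log2 difference was -0.40 over the tested members and 0.05 over all genes. By family, 2 of 6 tested members of family 1 rose and 1 fell. In family 6, 0 of 8 rose and 5 fell. These counts include Slc6a7, which entered the test through the lateral libraries alone, so its direction was set by the filter. They also include Slc6a11, which reached 1 FPKM in the lateral libraries and medial replicate 1 alone, so the filter favoured its direction too. In family 7 and in family 38, 0 of 8 each passed in limma, against 2 and 0 at an unadjusted p under 0.05. Ventricular and lateral libraries did not overlap in 16 of the 30 members (53.3%), against 45.1% of all genes tested.

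**Figure D1:**
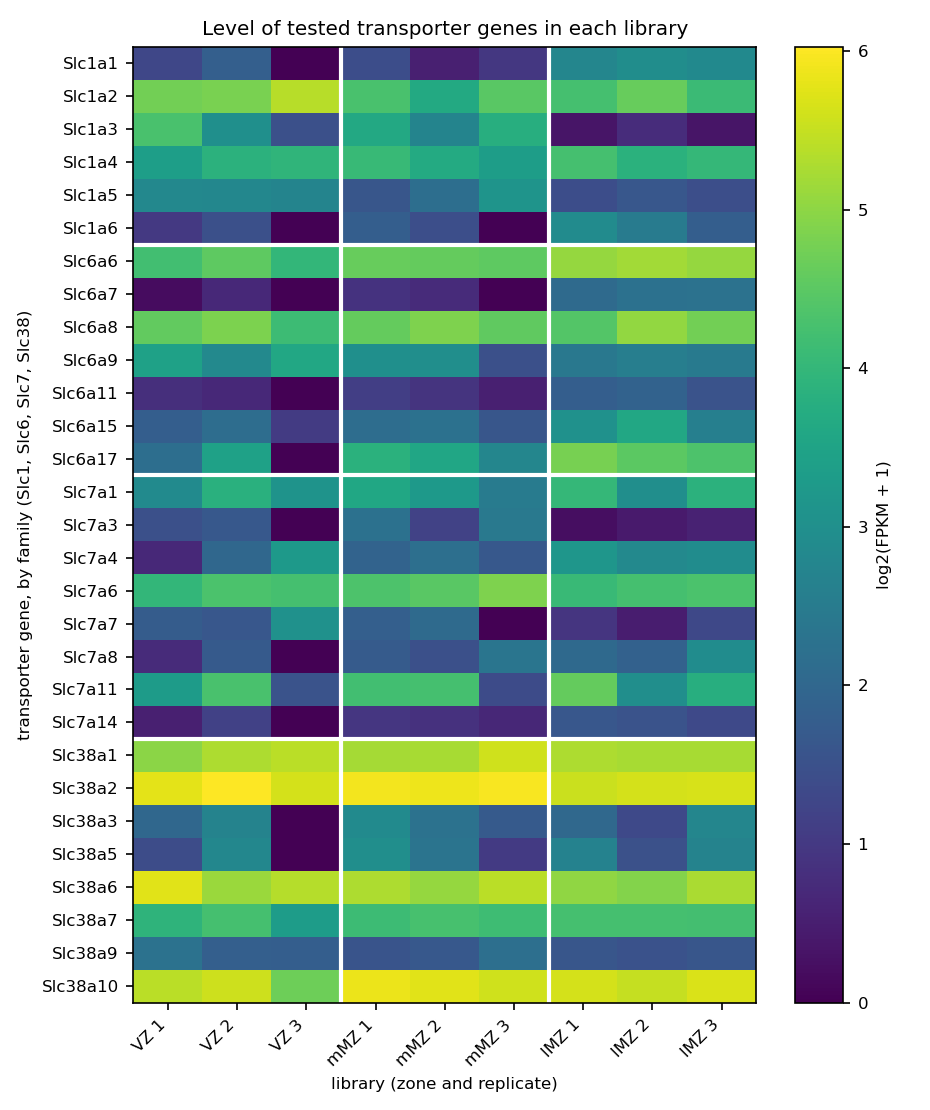
Level of 29 tested members as log2(FPKM + 1) in each of the 9 libraries, genes in rows by family and libraries in columns by zone and replicate (VZ ventricular, mMZ medial mantle, lMZ lateral mantle). Slc38a2, Slc38a10 and Slc38a1 are bright in every column, and the dark cells at 0 lie in VZ 3 (10 genes) and mMZ 3 (3 genes).

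**Figure D2:**
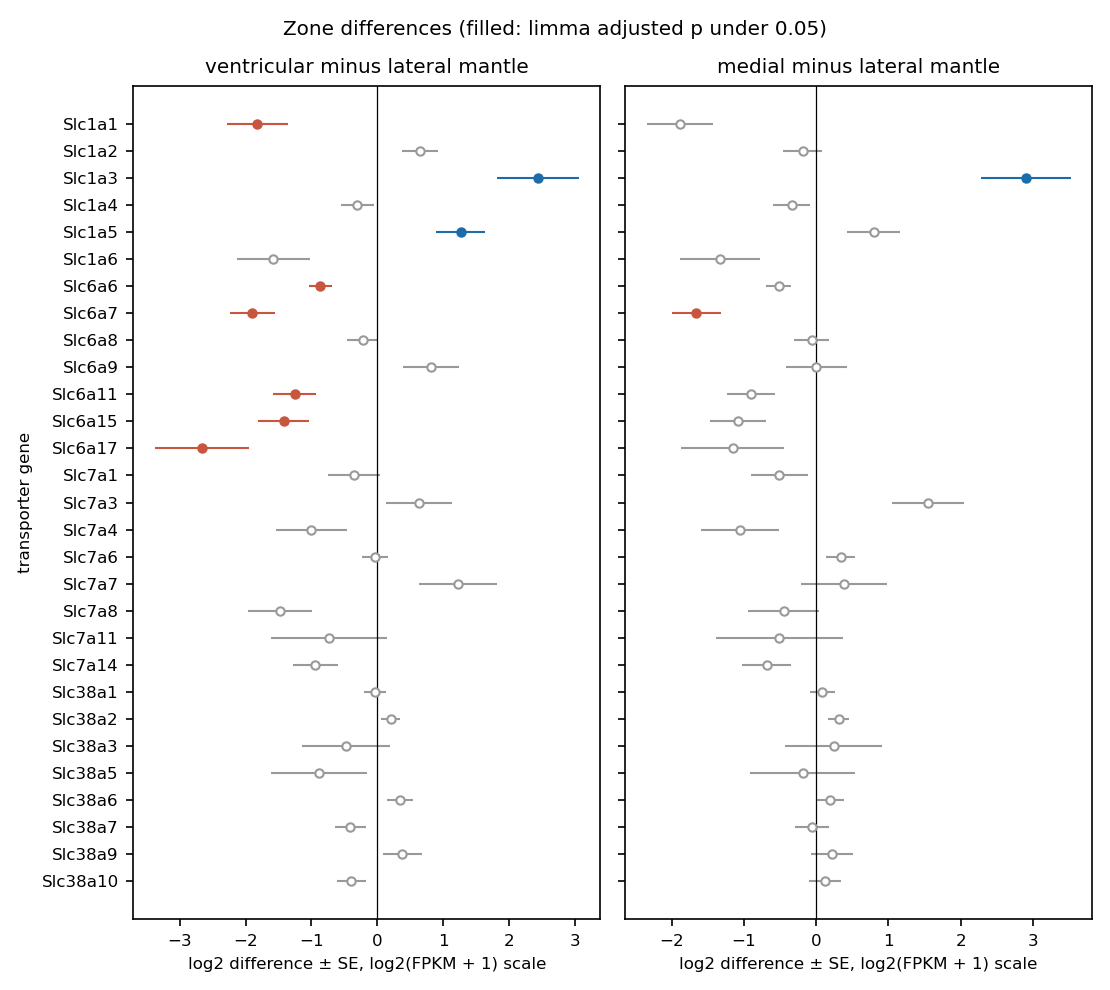
Log2 difference with its SE for 29 tested members, ventricular minus lateral mantle on the left and medial minus lateral mantle on the right, on the log2(FPKM + 1) scale. Filled points passed limma's adjusted p of 0.05: 8 on the left, 5 of them in family 6, and 2 on the right.

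The glutamate transporters changed in make-up between the zones. Slc1a3 stood at 18.7, 6.95 and 1.79 FPKM in ventricular replicates 1 to 3, at 11.5, 5.63 and 12.8 in the medial mantle and at 0.276, 0.690 and 0.262 in the lateral mantle. All lateral libraries lay below all others, and the ventricular libraries spread over the widest range. The gene spans 8634124 to 8710764 on chromosome 15 (minus strand, GRCm38). It was higher in the ventricular zone than in the lateral mantle by 2.44 ± 0.62 (SE) on the log2 scale (limma adjusted p = 0.0249). It was also higher in the medial than in the lateral mantle, by 2.90 ± 0.62 (limma adjusted p = 0.0312). The first call was lost without ventricular replicate 1 (adjusted p = 0.0661) or without lateral replicate 1, 2 or 3 (0.0839, 0.0675 and 0.0758). The second was lost without any one of the medial or lateral libraries (0.0614 to 0.119).

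Slc1a1 went the other way. Its level was 1.45, 2.56 and 0 FPKM in the ventricular, 1.70, 0.442 and 0.958 in the medial and 5.77, 6.73 and 6.32 in the lateral libraries. The lateral libraries lay close together and above all 6 others. Slc1a1 (chromosome 19, 28835049 to 28913960, plus strand) fell by 1.82 ± 0.46 (SE) on the log2 scale in the ventricular against the lateral zone (limma adjusted p = 0.0249). The call was lost without ventricular replicate 1 (0.0581) or lateral replicate 1, 2 or 3 (0.0770, 0.0861 and 0.0745). The medial minus lateral difference was -1.88 ± 0.46 with an adjusted p of 0.0535 in limma, and passed without ventricular replicate 2 (0.0301) or 3 (0.00539). Slc1a6, the transporter EAAT4 of Purkinje cells, stood at 1.01, 1.76 and 0 FPKM, then 2.46, 1.73 and 0, then 6.47, 4.65 and 2.51. Its ventricular minus lateral difference of -1.58 ± 0.55 missed the threshold (limma adjusted p = 0.0725), and passed without ventricular replicate 2 (0.0444) or medial replicate 3 (0.0385).

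Slc1a2, the glial glutamate transporter GLT-1, made up most of the glutamate transporter transcripts in every library. Its level was 26.0, 27.2 and 40.4 FPKM in the ventricular, 18.7, 11.7 and 21.3 in the medial and 18.2, 23.8 and 16.3 in the lateral libraries. Each ventricular library lay above each of the others, but the difference to the lateral mantle was 0.65 ± 0.27 and did not pass (limma adjusted p = 0.116). That to the medial mantle was 0.83 (adjusted p = 0.393 in limma).

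Per length, the 4 glutamate transporters above summed to 47.1, 38.5 and 42.2 FPKM in the ventricular, 34.3, 19.5 and 35.1 in the medial and 30.7, 35.8 and 25.3 in the lateral libraries. Slc1a7, the retinal transporter EAAT5, was listed at 0 throughout. Slc1a2 held 54.4% to 95.8% of that sum, highest in the shallow ventricular replicate 3 and at most 70.7% in any other library. The share of Slc1a3 was 39.7%, 18.05% and 4.25% in the ventricular, 28.8% to 36.5% in the medial and 0.901% to 1.93% in the lateral libraries. Slc1a1 and Slc1a6 together held 0% to 11.2%, 2.73% to 12.1% and 31.8% to 39.9% in the same order. The 4.25% and the 0% also came from ventricular replicate 3, and the 2.73% from medial replicate 3, the other shallow library. So the neuronal transporters held a larger share in every lateral library than in any other, while Slc1a2 kept at least 54.4% in all 9. No depth interval can be given for these shares, because the deposited values are not counts.

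**Figure D3:**
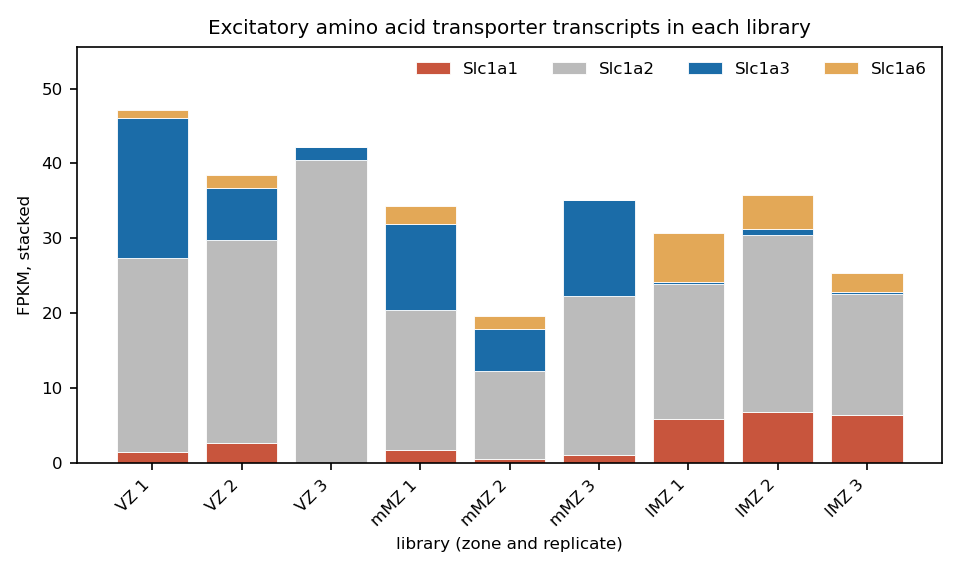
Stacked FPKM of Slc1a1, Slc1a2, Slc1a3 and Slc1a6 in each library, in order of zone and replicate. Slc1a2 fills most of every bar, Slc1a3 is a thin band of 0.262 to 0.690 FPKM in the lateral libraries, and the Slc1a1 and Slc1a6 segments are largest there.

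The neutral exchangers of family 1 differed from each other. Slc1a5, which exchanges glutamine and serine and is known from dividing cells, stood at 5.99, 5.94 and 5.57 FPKM in the ventricular, 2.04, 3.53 and 7.69 in the medial and 1.68, 2.11 and 1.75 in the lateral libraries. The ventricular libraries were alike and above the lateral ones, and the medial ones spanned both. Slc1a5 (chromosome 7, 16781340 to 16798274, plus strand) was higher in the ventricular zone by 1.27 ± 0.37 (limma adjusted p = 0.0407). This call did not survive the removal of ventricular replicate 1, 2 or 3 (0.0987, 0.0595 and 0.0561), medial replicate 2 (0.0653) or lateral replicate 1, 2 or 3 (0.125, 0.101 and 0.111). Slc1a4, an exchanger of alanine, serine and cysteine, stood at 9.46, 13.6 and 14.5, then 15.6, 11.8 and 9.25, then 17.95, 13.5 and 15.1 FPKM. Its zones overlapped, with a ventricular minus lateral difference of -0.30 (limma adjusted p = 0.416).

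In family 6, the member with the lowest adjusted p was Slc6a7, the proline transporter of neurons. It stood at 0.152, 0.632 and 0 FPKM in the ventricular, 0.848, 0.683 and 0 in the medial and 3.26, 3.74 and 3.83 in the lateral libraries. The lateral libraries lay together and far above the rest, and Slc6a7 reached 1 FPKM in those 3 libraries alone. The gene spans 60995380 to 61014222 on chromosome 18, minus strand. It fell by 1.90 ± 0.34 (SE) on the log2 scale in the ventricular zone (limma adjusted p = 0.00635), and the call held without any one of the 9 libraries (0.00395 to 0.0323). Those fits kept the filter made on all 9 libraries. They are therefore no separate support for the direction, which the filter set in this comparison and in the next. It also fell by 1.66 ± 0.34 (SE) in the medial against the lateral mantle (limma adjusted p = 0.0262). That call was lost without any one of the medial or lateral libraries (0.0541 to 0.120).

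Slc6a6, the taurine transporter, was the most abundant of the members that passed. Its level was 17.4, 22.2 and 14.9 FPKM in the ventricular, 23.6, 23.3 and 22.0 in the medial and 32.5, 35.3 and 32.5 in the lateral libraries. The lateral libraries lay above all others, and the medial ones lay between them and all but 1 of the ventricular ones. Slc6a6 (chromosome 6, 91684053 to 91759066, plus strand) fell by 0.86 ± 0.18 (SE) on the log2 scale in the ventricular zone (limma adjusted p = 0.0119). The call was lost without lateral replicate 2 (0.0565). The medial minus lateral difference of -0.52 had an adjusted p of 0.141 in limma, and passed without ventricular replicate 3 (0.0423). Slc6a8, the creatine transporter, was as abundant and differed little, with 22.8, 27.6 and 16.4, then 23.2, 28.2 and 22.5, then 20.2, 32.2 and 25.8 FPKM. Its zones overlapped, and the ventricular minus lateral difference was -0.22 (limma adjusted p = 0.528).

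Slc6a11, the GABA transporter whose promoter is printed above, was low, at 0.745, 0.622 and 0, then 1.17, 0.889 and 0.446, then 2.51, 2.73 and 1.93 FPKM. Slc6a11 reached 1 FPKM in the lateral libraries and medial replicate 1 alone, so the filter favoured its direction against the ventricular zone. Its lateral libraries lay above all others. Slc6a11 (chromosome 6, 114131241 to 114249952, plus strand) fell by 1.26 ± 0.33 (SE) on the log2 scale in the ventricular zone (limma adjusted p = 0.0271). The call was lost without ventricular replicate 1 (0.0517) or lateral replicate 1, 2 or 3 (0.0966, 0.102 and 0.0643).

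A pair of neutral amino acid transporters that neurons use for proline and branched-chain amino acids also fell. Slc6a17, which sits on synaptic vesicles, stood at 3.53, 9.99 and 0 FPKM in the ventricular, 13.3, 10.8 and 5.83 in the medial and 26.8, 21.7 and 19.2 in the lateral libraries. The medial libraries lay below all lateral ones and overlapped the ventricular ones. Slc6a17 (chromosome 3, 107467543 to 107518018, minus strand) fell by 2.67 ± 0.71 (SE) on the log2 scale in the ventricular zone (limma adjusted p = 0.0299). The call was lost without ventricular replicate 1 (0.0686) or lateral replicate 1, 2 or 3 (0.101, 0.0892 and 0.0730). Slc6a15, a plasma membrane transporter of branched-chain amino acids and proline, stood at 2.48, 3.43 and 1.06, then 3.45, 3.72 and 2.06, then 7.23, 11.2 and 5.08 FPKM. Its lateral libraries lay above all others. Slc6a15 (chromosome 10, 103367783 to 103419377, plus strand) fell by 1.42 ± 0.39 (SE) on the log2 scale in the ventricular zone (limma adjusted p = 0.0315). It lost the call without ventricular replicate 1 or 3 (0.0721 and 0.0564), medial replicate 1 or 2 (0.0502 and 0.0503) or lateral replicate 1 or 2 (0.0963 and 0.125).

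Slc6a9, the glycine transporter GLYT1, was the only tested family 6 member with a higher ventricular than lateral estimate. It stood at 9.98, 6.17 and 11.2 FPKM in the ventricular, 7.06, 6.92 and 1.77 in the medial and 4.36, 4.95 and 4.53 in the lateral libraries. Ventricular and lateral libraries did not overlap, but the difference of 0.82 ± 0.42 did not pass (limma adjusted p = 0.193).

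**Figure D4:**
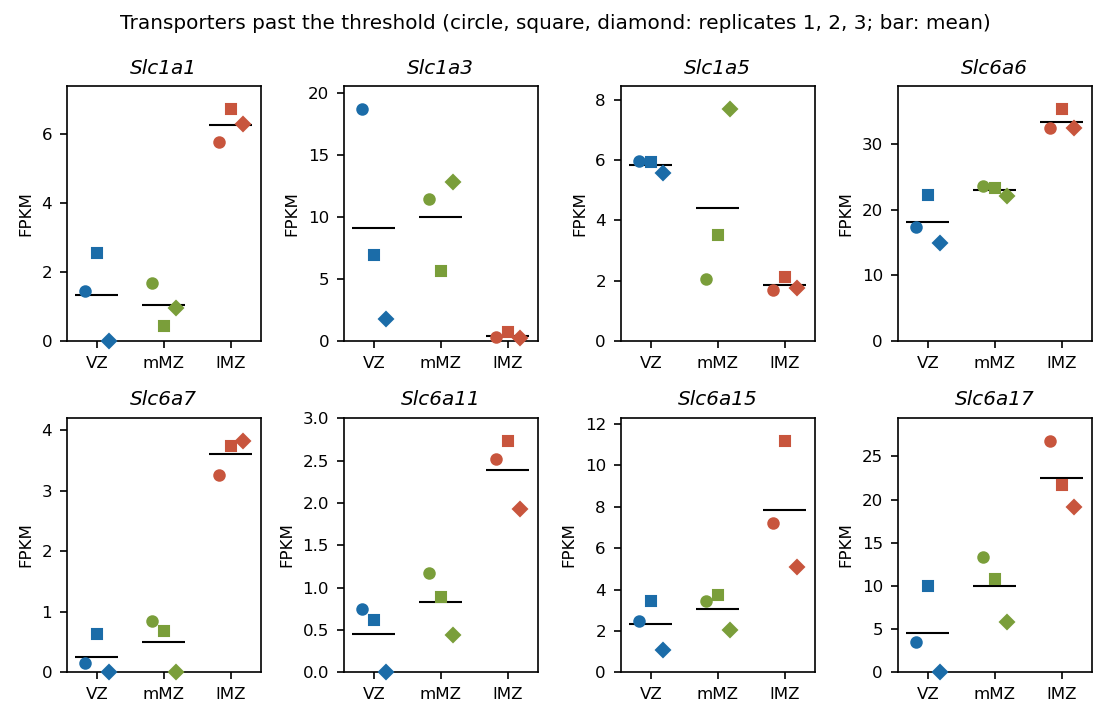
FPKM of the 8 members that passed limma's threshold in at least 1 comparison, by zone, with replicates 1, 2 and 3 as circle, square and diamond and the zone mean as a bar. Slc1a3 and Slc1a5 are low in the lateral mantle, and the other 6 have all their lateral points above all ventricular points.

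Other settings ended some of these calls between ventricular and lateral zones too. With a pseudocount of 0.1 the limma adjusted p was 0.0886 for Slc1a1, 0.0745 for Slc6a11 and 0.0875 for Slc6a17. With no filter on low values it was 0.0560 for Slc1a1, 0.0572 for Slc1a3, 0.0856 for Slc1a5, 0.0689 for Slc6a15 and 0.0655 for Slc6a17. With the medial libraries left out of the fit it was 0.0507 for Slc1a1, 0.0543 for Slc1a3, 0.0533 for Slc6a11, 0.0608 for Slc6a15 and 0.0637 for Slc6a17. Between the medial and lateral mantle, Slc6a7 lost its call with the smaller pseudocount (0.160) and Slc1a3 with no filter (0.0768).

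Family 7 differed between zones in no call. Slc7a6, the light chain y+LAT2 that exchanges arginine for glutamine, stood at 14.8, 18.9 and 18.1 FPKM in the ventricular, 19.2, 21.4 and 28.3 in the medial and 16.0, 17.96 and 19.1 in the lateral libraries. Its ventricular minus lateral difference was -0.04 (limma adjusted p = 0.907). Slc7a11, the cystine and glutamate exchanger xCT, stood at 8.87, 18.7 and 1.91, then 17.3, 18.1 and 1.60, then 23.4, 6.84 and 12.8 FPKM. The zones overlapped, and the lowest values fell in the 2 shallow libraries. The difference was -0.74 ± 0.88 (limma adjusted p = 0.572). Slc7a1, the main cationic amino acid transporter CAT1, stood at 6.39, 13.2 and 7.57, then 11.0, 8.48 and 4.72, then 15.2, 6.94 and 13.6 FPKM, again with overlap (limma adjusted p = 0.541). Slc3a2, the heavy chain that carries most of these light chains to the membrane, was level too, at 25.2 ± 4.03, 28.6 ± 7.46 and 26.9 ± 3.25 FPKM (SD, n = 3 per zone) in the ventricular, medial and lateral zones.

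The other tested members of family 7 were chosen for mention after their values were seen. Slc7a3, a cationic transporter, stood at 1.77, 2.14 and 0 FPKM in the ventricular, 3.75, 1.26 and 4.43 in the medial and 0.162, 0.351 and 0.487 in the lateral libraries. All medial libraries lay above all lateral ones, with a difference of 1.55 ± 0.50 that did not pass (limma adjusted p = 0.12). It passed without ventricular replicate 3 (0.0257). Slc7a8, the light chain LAT2, stood at 0.668, 2.29 and 0, then 2.30, 1.76 and 4.05, then 3.18, 2.65 and 6.66 FPKM, with a ventricular minus lateral difference of -1.47 (limma adjusted p = 0.0602). It passed without ventricular replicate 2 (0.0147), as did Slc7a14, a lysosomal member of the cationic branch (0.0250, against 0.0797 with all libraries). Slc7a14 was at 0.455, 1.23 and 0 FPKM in the ventricular, 0.926, 0.803 and 0.602 in the medial and 2.12, 1.93 and 1.52 in the lateral libraries. Slc7a4, an orphan relative of the cationic transporters, stood at 0.623, 3.03 and 8.40 FPKM in the ventricular libraries against 6.11 to 7.97 in the lateral ones. Its difference of -0.999 did not pass (limma adjusted p = 0.212), but reached -1.62 and passed without ventricular replicate 3 (0.0237). Slc7a7, the light chain y+LAT1 known from macrophages and epithelia, stood at 2.37, 2.09 and 7.26, then 2.53, 3.23 and 0, then 0.909, 0.406 and 1.49 FPKM. Its ventricular libraries lay above the lateral ones without passing (limma adjusted p = 0.166). The summed level of 8 microglia and macrophage markers was 7.16 to 22.4, 9.24 to 25.4 and 34.3 to 50.4 FPKM in the ventricular, medial and lateral libraries. In the ventricular against the lateral zone 0 of the 8 were higher and 2 lower, where 10.7% and 8.93% of all genes tested were. The part of these cells in the Slc7a7 values was not tested.

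A stretch of promoter is printed for Slc7a11 because it holds copies of the element TGATGNAA, which the shortage factor ATF4 and its partners are known to bind. It lies at chr3:50443614-50443763 on the minus strand of GRCm38.p6, with the 2 matches in capitals, the second on the opposite strand.
Slc7a11: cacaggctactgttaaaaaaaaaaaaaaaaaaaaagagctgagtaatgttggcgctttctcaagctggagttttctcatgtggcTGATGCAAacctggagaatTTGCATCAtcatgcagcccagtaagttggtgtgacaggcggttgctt
Both strands of all 300-base windows were searched, 250 bases before to 50 after each RefSeq start. TGATGNAA was found in 3.97% of all windows and in a window of 3 of the 35 members, Slc1a4, Slc7a7 and Slc7a11. CAGCTG, an E-box, was in 16.3% of all windows and in 12 members, and NGTGGGAA was in 6.37% and in 5 members. TGACGTCA was in 1.79% and in 1 member, Slc38a6, and TTCAGCACC was in 0.371% and in 0 members. Members have up to several windows each, so their counts are not on the scale of the shares of windows. Of the 55 member windows, 7.27% held TGATGNAA, 23.6% CAGCTG, 12.7% NGTGGGAA, 1.82% TGACGTCA and 0% TTCAGCACC. These motifs were chosen after values were seen, and a match is a description of letters only.

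Family 38 was the most abundant of the families in every library, and none of its 8 tested members passed. It held 48.7% to 51.3% of the summed FPKM of all members in the ventricular, 48.0% to 54.1% in the medial and 41.6% to 45.8% in the lateral libraries. Family 6 held 17.0% to 24.0%, 22.0% to 30.4% and 30.5% to 36.6% in the same order. Every lateral library thus had a lower share of family 38 and a higher share of family 6 than every other library. Slc38a1, Slc38a2, Slc38a6 and Slc38a10 made up 84.6% to 93.1% of the family. The summed level of all members was 328 to 460 FPKM per library.

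Slc38a2, the glutamine and alanine transporter SNAT2, stood at 54.2, 64.3 and 49.0 FPKM in the ventricular, 59.7, 58.1 and 62.0 in the medial and 46.0, 48.5 and 49.96 in the lateral libraries. All medial libraries lay above all lateral ones, but the difference of 0.31 ± 0.14 did not pass (limma adjusted p = 0.256), nor did the ventricular minus lateral one (0.342). Slc38a1, the SNAT1 transporter that brings glutamine into neurons, stood at 30.6, 38.3 and 41.2, then 35.9, 36.9 and 46.9, then 37.9, 36.7 and 37.1 FPKM, with overlapping zones (limma adjusted p = 0.913). Slc38a10, a widely expressed relative, stood at 41.1, 46.3 and 24.9, then 56.7, 53.1 and 47.5, then 49.1, 44.5 and 50.7 FPKM. Its ventricular libraries lay below all medial ones, but the difference of -0.52 ± 0.22 did not pass (limma adjusted p = 0.409), nor did the ventricular minus lateral one (0.224). Slc38a1 and Slc38a2 are neighbours on chromosome 15, with a gap of 44.5 kb, and means of 37.9 and 54.6 FPKM. The third gene of that row, Slc38a4, lay 295 kb further and had a mean of 0.224 FPKM.

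Slc38a5 and Slc38a3, the glutamine transporters SNAT5 and SNAT3, are set beside endothelial markers because vessels in the brain are a known site of amino acid uptake. Both were picked with their values in view. The summed level of 8 endothelial markers was 18.1, 45.8 and 5.99 FPKM in the ventricular, 58.0, 39.9 and 22.4 in the medial and 38.3, 14.0 and 44.6 in the lateral libraries. Slc38a5 stood at 1.63, 5.91 and 0, then 6.83, 3.96 and 1.03, then 5.38, 1.81 and 5.43 FPKM. Slc38a3 stood at 3.03, 5.49 and 0, then 6.42, 3.79 and 2.28, then 3.14, 1.52 and 5.77 FPKM. Within each zone both genes had their highest and lowest values in the same libraries as the endothelial sum, although lateral replicates 1 and 3 of Slc38a5 were nearly equal. The 6 pericyte markers summed to 11.1, 15.1 and 7.97, then 17.5, 13.5 and 3.98, then 11.1, 3.99 and 10.2 FPKM, lowest in the same library of each zone. Slc7a11 was lowest in these libraries too, at 1.91, 1.60 and 6.84 FPKM, so the shared minimum is not particular to Slc38a5 and Slc38a3. Ventricular replicate 3 and medial replicate 3, with the lowest values of their zones, are also the shallow libraries, and the part of depth, of endothelial cells or of pericytes in these values was not tested. In limma 0 of the 8 endothelial markers differed between ventricular and lateral zones, against 19.6% of all genes tested. At an unadjusted p under 0.05, 0 of the 8 did, against 35.8% of all genes.

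**Figure D5:**
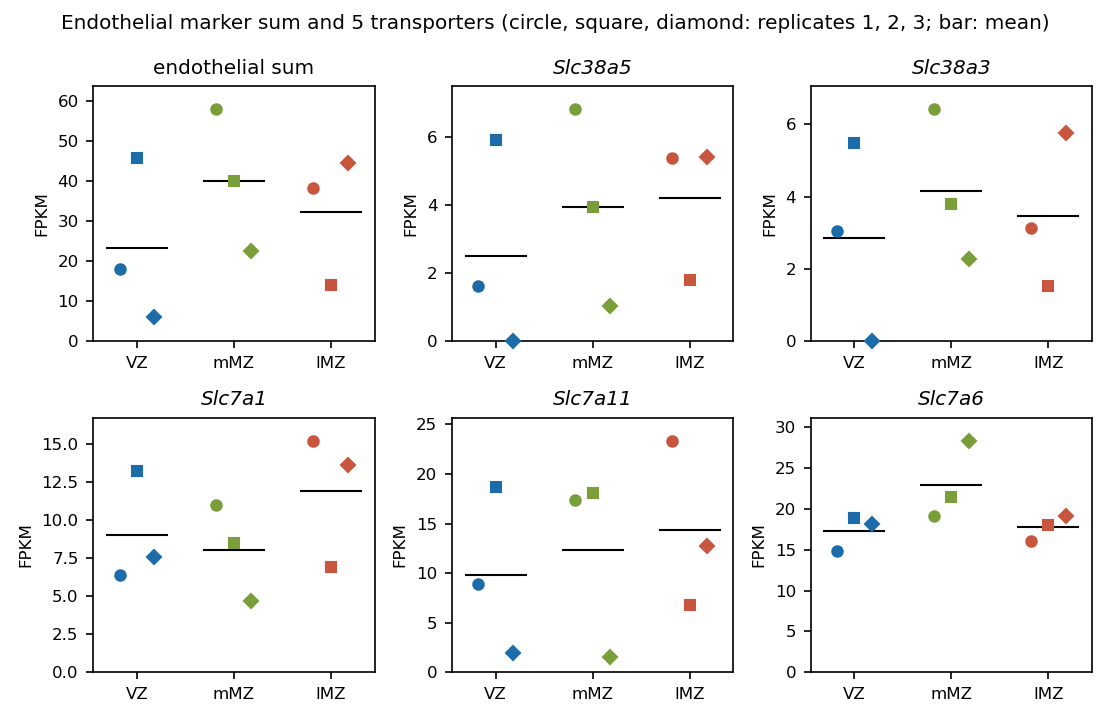
Summed FPKM of 8 endothelial markers and FPKM of Slc38a5, Slc38a3, Slc7a1, Slc7a11 and Slc7a6, by zone, with replicates 1, 2 and 3 as circle, square and diamond and the zone mean as a bar. The sum ranges from 5.99 to 58.0 FPKM, and within each zone the lowest points of the sum, Slc38a5, Slc38a3 and Slc7a11 come from the same library (VZ 3, mMZ 3 and lMZ 2).

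The other 20 members were too low to test. 6 were listed at 0 in all libraries (Slc1a7, Slc6a14, Slc6a18, Slc7a12, Slc7a13 and Slc7a15). The remaining 14 did not reach 1 FPKM in 3 libraries and peaked at 2.02 FPKM, for Slc7a10 in ventricular replicate 1. They include the monoamine transporters Slc6a2, Slc6a3 and Slc6a4 for noradrenaline, dopamine and serotonin, and the glycine transporter Slc6a5 of inhibitory neurons. The others were Slc6a12, Slc6a13, Slc6a16, Slc6a19, Slc7a2, Slc7a9, Slc38a4, Slc38a8 and Slc38a11. The adjacent GABA and betaine transporter genes Slc6a13 and Slc6a12, with 5.34 kb between them, had means of 0.146 and 0.122 FPKM.

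In the medial against the lateral mantle, 2 of the 30 tested members passed in limma (6.67%), against 4.12% of all genes tested. Slc1a3 was higher, and Slc6a7, in the test through its lateral values alone, was lower. Of all genes tested, 3.58% passed as higher and 0.543% as lower. The median log2 difference was -0.12 over the tested members and 0.10 over all genes. Medial and lateral libraries did not overlap in 13 of 30 members (43.3%), against 40.4% of all genes. Other scaling moved the split of all calls: 86.8% were higher in the medial mantle as deposited, 66.6% after quantile scaling and 78.6% after trimmed mean scaling. The median over all genes of 0.10 became -0.01 and -0.02 under these. The members' split of 1 higher and 1 lower became 1 and 3 with quantile scaling and 1 and 2 with the trimmed mean. By family, the medial minus lateral median was -0.26 in family 1, -0.71 in family 6, -0.48 in family 7 and 0.16 in family 38.

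Between the ventricular zone and the medial mantle, 0 of 30 members and 0% of all genes tested passed in limma. At an unadjusted p under 0.05 there were 3 members, among them Slc1a2 as higher and Slc38a10 as lower in the ventricular zone, and 1661 genes in all (11.9%). Libraries of these zones did not overlap in 4 of 30 members, those 3 and Slc7a6, which was lower in the ventricular zone, against 14.7% of all genes. Under quantile scaling 9 genes of all passed and 0 members, and with array weights 10 members and 19.7% of all genes did. Both zones hold a shallow library, and both comparisons with the lateral mantle share its 3 libraries.

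Genes that work beside the transporters were taken from lists of the pathway. Of 10 enzymes that make or use glycine, taurine and creatine, 6 rose and 1 fell in the ventricular against the lateral zone in limma, where 10.7% of all genes tested rose and 8.93% fell, with a median log2 difference of 1.103 against 0.05 over all genes. Gldc, the decarboxylase of the glycine cleavage system, stood at 16.3 ± 6.56, 13.0 ± 1.61 and 0.813 ± 0.315 FPKM (SD, n = 3) in the ventricular, medial and lateral zones. Its ventricular minus lateral difference was 3.20 ± 0.32 (limma adjusted p = 0.000662), and the medial minus lateral one was 2.96 ± 0.32 (limma adjusted p = 0.00225). Shmt1, which interconverts serine and glycine, stood at 8.79 ± 3.20, 5.11 ± 2.71 and 0.585 ± 0.182 FPKM (SD, n = 3), with a ventricular minus lateral difference of 2.59 ± 0.37 (limma adjusted p = 0.00239). Cdo1, the first enzyme of the route from cysteine to taurine, fell by 1.66 ± 0.42 (SE) on the log2 scale, from 24.5 ± 1.16 FPKM (SD, n = 3) in the lateral to 8.31 ± 5.23 in the ventricular zone (limma adjusted p = 0.0255). That call was lost without ventricular replicate 1 (0.0516) or lateral replicate 1, 2 or 3 (0.0846, 0.0769 and 0.0773). Csad, the next enzyme of that route, named after its values were seen, stood at 8.59 ± 1.16, 5.23 ± 1.88 and 5.04 ± 0.248 FPKM (SD, n = 3), with a ventricular minus lateral difference of 0.66 ± 0.28 that did not pass (limma adjusted p = 0.123). Amt, another subunit of glycine cleavage, did not pass (limma adjusted p = 0.36). Between the medial and lateral mantle 4 of these 10 rose and 0 fell, where 3.58% and 0.543% of all genes did, with a median of 0.80 against 0.10 over all genes. Shmt1 was 1 of these 4, by 1.87 ± 0.37 (limma adjusted p = 0.0225), and lost the call without any one of the medial or lateral libraries (0.054 to 0.107).

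Of 10 enzymes of glutamate, glutamine and GABA, 0 rose and 1 fell in the ventricular against the lateral zone, where 19.6% of all genes passed, with a median of -0.30 against 0.05 over all genes. Gad1, which makes GABA, stood at 17.0 ± 4.13, 33.1 ± 9.10 and 36.5 ± 2.74 FPKM (SD, n = 3). It fell by 1.09 ± 0.25 (SE) on the log2 scale against the lateral mantle (limma adjusted p = 0.0182), a call lost without lateral replicate 1, 2 or 3 (0.0583, 0.072 and 0.0584). Of 3 tested vesicular transporters 1 fell in the same comparison, where 8.93% of all genes tested fell. It was Slc32a1, which loads GABA and glycine into vesicles, at 7.60 ± 2.63, 22.4 ± 3.13 and 15.1 ± 1.90 FPKM (SD, n = 3). Its difference was -0.95 ± 0.27 (limma adjusted p = 0.0346), and it was lost without ventricular replicate 1 (0.0856), medial replicate 1 or 2 (0.0585 and 0.0532) or lateral replicate 1, 2 or 3 (0.124, 0.11 and 0.0706). Slc17a6, which loads glutamate, did not pass (limma adjusted p = 0.717). In the medial mantle Slc18a2, the vesicular monoamine transporter, reached 17.1 ± 3.86 FPKM (SD, n = 3) against 2.42 ± 0.769 in the lateral mantle. That difference of 2.41 ± 0.31 passed, also without any one library (limma adjusted p = 0.00413), while the plasma membrane transporters for monoamines were too low to test.

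Of 6 tested other amino acid transporters, 1 rose and 1 fell in the ventricular against the lateral zone, where 10.7% of all genes tested rose and 8.93% fell. Slc43a1, a transporter of large neutral amino acids, rose by 2.02 ± 0.58 (limma adjusted p = 0.0386), and kept its call without ventricular replicate 2 or medial replicate 3 alone (0.0504 to 0.118 without each of the other 7 libraries). Slc36a4, a transporter of proline and tryptophan, stood at 8.18 ± 1.51, 10.7 ± 1.04 and 16.0 ± 1.26 FPKM (SD, n = 3) and fell by 0.90 ± 0.21 (SE) on the log2 scale (limma adjusted p = 0.0177). It lost the call without ventricular replicate 1 or lateral replicate 1, 2 or 3 (0.0558, 0.0766, 0.0559 and 0.0702).

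Of 11 tested genes of the response to amino acid shortage, 2 rose and 1 fell in the same comparison, where 19.6% of all genes passed, with a median of 0.18 against 0.05 over all genes. Atf5, a factor of that response, stood at 25.7 ± 3.28, 20.4 ± 11.2 and 7.18 ± 1.65 FPKM (SD, n = 3), with a difference of 1.72 ± 0.34 that passed without any one library (limma adjusted p = 0.0103). Eif4ebp1, a brake on translation, rose by 1.25 ± 0.29 (limma adjusted p = 0.0182), a call lost without ventricular replicate 1 (0.0648) or lateral replicate 1 or 2 (0.0752 and 0.0777). Vldlr, a lipoprotein receptor, fell by 1.24 ± 0.35 (SE) (limma adjusted p = 0.0368), a call lost without ventricular replicate 1 (0.079), medial replicate 1 or 2 (0.0561 and 0.0589) or lateral replicate 1, 2 or 3 (0.101, 0.122 and 0.0914). Atf4, the central factor of the response, stood at 83.0 ± 10.1, 90.2 ± 4.83 and 73.1 ± 7.51 FPKM (SD, n = 3) and did not pass (limma adjusted p = 0.413). Of 14 genes of lysosomal amino acid sensing, 0 rose and 1 fell, again against 19.6% of all genes that passed, with a median of -0.08 against 0.05 over all genes. That gene, the GTPase Rragb, fell by 0.68 ± 0.21 (SE) on the log2 scale (limma adjusted p = 0.0457), and lost the call without ventricular replicate 1 (0.125), medial replicate 1 or 2 (0.0591 and 0.068) or lateral replicate 1, 2 or 3 (0.152, 0.105 and 0.131). Between the ventricular zone and the medial mantle 0 genes of these pathway lists passed in limma, as did 0% of all genes tested.

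Markers of other cells moved with the zones as well. The summed level of erythroid markers was 1868 to 2014 FPKM in the ventricular, 1321 to 2419 in the medial and 224 to 534 in the lateral libraries. Of the 5 tested, 4 were higher in the ventricular than in the lateral zone, where 10.7% of all genes tested were. Of 8 progenitor markers 7 were higher in the ventricular and in the medial zone than in the lateral one. Over all genes tested, 10.7% and 3.58% were. Of 7 neuron markers 5 were lower in the ventricular zone than laterally, against 8.93% of all genes tested. Among choroid plexus markers, Ttr was listed at 0 in 5 libraries and 1 of 6 markers, Folr1, was high enough to test. Folr1 stood at 2.89, 2.04 and 5.44 FPKM in the ventricular, 0.291, 0 and 0 in the medial and 0, 0.840 and 0.266 in the lateral libraries. It was higher in the ventricular than in the lateral zone by 1.68 ± 0.37 (limma adjusted p = 0.0160), a call lost without lateral replicate 1 or 3 (0.0731 and 0.0565). Folr1 entered the test through the ventricular libraries alone, so its direction was set by the filter. Together the 6 markers gave 2.46 to 5.44 FPKM in the ventricular, 0.366 to 1.09 in the medial and 0.674 to 1.24 in the lateral libraries. The part of these cell types in the differences of Slc1a3, Slc1a5 and the neuronal members was not tested.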

How the data were processed

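The authors deposited 1 table of FPKM values, 1 column per library, and each column was matched to its library by name. Bowtie2 2.1.0 and the mm10 build are named, per the submitters' processing notes. A program for the FPKM estimates was not given in the sources used here. Of 38370 rows, 42 were exact duplicates and 133 repeated another symbol. After their removal, which touched no member, 38195 symbols were left. Count tests do not apply to FPKM.

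The fit used limma 3.58.1 in R 4.3.3: on log2(FPKM + 1), 1 mean per zone over all 9 libraries, empirical Bayes moderation with an intensity trend, two-sided p-values adjusted by Benjamini-Hochberg over all 14004 genes that reached 1 FPKM in 3 or more libraries, threshold 0.05. The fit was tested on simulated data in which every library of a gene had the same spread. The unequal depth of the libraries was not simulated, so that run cannot show how the fit handles it. Depth was estimated from the smallest steps of FPKM in single-transcript genes of 1500 bp or longer, so it is approximate and gives no interval per value. Gene spans are from GENCODE M21 and promoters from RefSeq, both on GRCm38. The labels' replicate numbers were not used as pairs: same-numbered libraries of different zones had correlations of -0.10 to 0.25, and 4 of 9 were over 0.1.

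The members and lists were chosen with earlier results of these data known. Named genes were every member that passed in a comparison, up to 3 further tested members per family by mean level, untested members by name and highest value, and per pathway list and comparison up to 2 higher, 2 lower and 1 that did not pass. Slc7a5 and Slc6a20 were not analysed here. Values of 1 tested member are not reported here, though it stays in the counts, shares and medians. Alternatives covered the pseudocount, the filter, the scaling, the trend, array weights, the zones fitted, a replicate block and leaving out libraries.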

Additional observations from a re-analysis of the deposited data

How the results depend on the processing

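Members that passed between the ventricular and the lateral zone numbered 8, and 5 with a pseudocount of 0.1, 4 without a filter, 3 with a mean of at least 5 FPKM required, 18 with array weights and 3 with only the 2 zones fitted. Leaving out 1 library gave 1 to 10. As shares of those tested, 26.7% of members and 19.6% of all genes passed in the fit used above. With the pseudocount of 0.1 these shares were 16.7% and 16.1%, without a filter 9.09% and 9.12%, and with the stricter filter 18.8% and 22.2%. With array weights they were 60% and 48.6%, and with only 2 zones fitted 10% and 12%. Between the medial and the lateral mantle 2 members passed, and 1, 2, 1, 12 and 7 in the same order, 4 with quantile scaling and 4 without both shallow libraries. Leaving out 1 library gave 0 to 5. The shares of members and of all genes were 6.67% and 4.12% in the fit used above. They were 3.33% and 3.95% with the smaller pseudocount, 4.55% and 1.91% without a filter, and 6.25% and 4.98% with the stricter filter. With array weights they were 40% and 26.4%, with 2 zones fitted 23.3% and 14.5%, and with quantile scaling 13.3% and 5.65%. Between the ventricular zone and the medial mantle 0 members passed, 10 with array weights (33.3%, against 19.7% of all genes), and 0 to 0 without 1 library. Of all genes, 2750 passed between ventricular and lateral zones, 6800 with array weights, 1684 with 2 zones fitted and 959 to 3958 without 1 library. Medial against lateral gave 577, 3700 with array weights, 2027 with 2 zones, 1666 without both shallow libraries and 207 to 1760 without 1. Ventricular against medial gave 0, 2761 with array weights, 9 with quantile scaling, 4 with the stricter filter and 0 to 571 without 1 library. The cause was not tested, but the stricter filter tested 16 members and the missing filter 44. The weights stopped before their convergence tolerance was reached.

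Of 1668 estimates of single members under the alternatives, 1555 kept their side of the threshold, 57 lost it and 55 gained it. Only Slc7a4, ventricular minus medial, was called with the opposite sign, at -1.13 with array weights against 0.06. Among 1428 estimates past the threshold in neither fit, 69 had another sign. With the replicate block 9, 0 and 2 members passed (ventricular against lateral, ventricular against medial, medial against lateral), and 2901, 0 and 703 of all genes. In 5 of 9 comparisons of a library with those of another zone, the correlation was highest with its own number. The shallow ventricular and medial libraries limit what can be read of members near 1 FPKM.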

Other observations

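A low member stood apart among those under the filter, and is named after its values were seen. Slc6a16, an orphan of the neutral amino acid branch of family 6 on chromosome 7, was listed at 0.0878, 0 and 0 FPKM in the ventricular, 0.0734, 0.158 and 0 in the medial and 0.601, 0.726 and 1.03 in the lateral libraries. Every lateral library lay above all others. With no filter on low values the ventricular minus lateral difference was -0.79 ± 0.11 (limma adjusted p = 0.00696) and the medial minus lateral one -0.72 ± 0.11 (limma adjusted p = 0.0202). A single fragment on a 2 kb transcript was worth 1.92 FPKM in ventricular replicate 3, above each of these values, and 0.927 FPKM in medial replicate 3. Slc7a2, a cationic transporter, stood at 0.374, 0.539 and 0 FPKM in the ventricular, 0.779, 0.370 and 0 in the medial and 0.0441, 0.0869 and 0.119 in the lateral libraries. In the deeper libraries of both inner zones it lay above the lateral mantle, and with no filter the ventricular minus lateral difference was 0.25 ± 0.22 (limma adjusted p = 0.523).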
